A study of Rattus norvegicus with 46 samples.

Results

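Rbm3 (RNA-binding motif protein 3) and Cirbp (cold-inducible RNA-binding protein) are the 2 genes described here, out of 9289 genes kept on the arrays. They were chosen on their raised level in the passively loaded leg of these rats, so the difference between the legs is the measure that selected them; it is described below for each rat and is not tested. Each gene has 1 listed probe set on the array (10932422 for Rbm3 and 10900583 for Cirbp), and both probe sets exceeded the median of their own array on 46 of 46 arrays.

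The animals were 23 female Sprague-Dawley rats of an experimental intensive care model, and expression was measured in their proximal gastrocnemius, a calf muscle, with 1 array for each leg. Every rat was kept under isoflurane and ventilated mechanically, and its muscles were paralysed with alpha-cobrotoxin, a snake toxin that occupies the muscle acetylcholine receptor. A lever loaded the left leg passively, 13.3 times a minute, during 12 h of each day (6 h in the briefest experiments), and the other leg stayed unloaded. The window of 6 h to 4 d holds 13 rats, that of 5 to 8 d holds 4 and that of 9 to 14 d holds 6, and each mixes several durations. No untreated rats enter the comparisons, and a change with duration is therefore a change against rats paralysed for 6 h to 4 d. Ages are not given in the sources used here. Body temperature, which bears on genes induced by cold, was held at 37 °C by feedback from a thermistor in the vagina, per the labels, and no temperature of the muscle itself was used here. Values are log2 expression values, so a difference of 1 is a doubling.

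Rbm3 and Cirbp are close relatives, each with a single RNA recognition motif followed by a glycine-rich tail. Their transcripts and proteins rise when cells are cooled mildly and fall when cells are warmed, a response opposite to that of the heat shock genes under heat shock factor 1. Rbm3 is known to bind messenger RNAs and to sustain translation at low temperature, and has been studied in skeletal muscle for its effect on survival and size of muscle cells under stress. Cirbp is known to stabilise stress-related and circadian transcripts, Clock among them, and its abundance in the cold is set partly by how efficiently its transcript is spliced.

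The sequence just before each gene is shown because Cirbp is the gene in which a mild-cold responsive element, TCCCCGCC, was described. The stretches come from RefSeq promoters of the build GRCr8 and end at the base before the annotated gene. That of Rbm3 covers chrX:17020655-17020862 on the plus strand (208 bases, 54.3% G or C) and that of Cirbp chr7:10189624-10189725 on the minus strand (102 bases, 65.7% G or C). Both lie upstream of the annotated gene, outside its exons. Capitals mark TCCCCGCC and CCAAT.

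Rbm3: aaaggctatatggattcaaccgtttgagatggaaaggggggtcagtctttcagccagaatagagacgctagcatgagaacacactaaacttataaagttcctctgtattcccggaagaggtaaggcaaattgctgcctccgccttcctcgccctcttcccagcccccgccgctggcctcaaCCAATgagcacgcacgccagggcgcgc
Cirbp: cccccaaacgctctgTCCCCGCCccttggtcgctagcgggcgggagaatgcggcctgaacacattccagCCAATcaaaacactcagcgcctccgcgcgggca

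Motifs were searched on both strands of the whole 300-base window of each gene, which runs past the stretches shown. TCCCCGCC was found once for Cirbp and not for Rbm3, and 4.79% of all 33469 windows hold it. CCAAT had 1 match for Rbm3 and 2 for Cirbp, and 37.5% of the windows hold it. The GC box GGGCGG had 5 matches for Cirbp and 0 for Rbm3 (33.1% of windows), and 1 of the 5 overlaps the TCCCCGCC match. Neither gene's window had the heat shock element GAANNTTC (8.59% of windows), the E-box CACGTG (6.42%) or the hypoxia core ACGTG (19.3%). A match is a run of letters and not evidence of a bound site.

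Which legs came from the same rat is not stated in the labels, and they were paired by consecutive label numbers, each rat taking the number of its unloaded leg as its name. The pairing is called uncertain for rats 17, 19, 21, 23, 27 and 51, and no label settles it for the others. Of all 1035 array pairs, the one most alike was formed by the loaded legs of rats 21 and 27. The SD of their difference over genes was 0.14, where the next pair had 0.18 and the median pair 0.62. Both legs stayed in as separate samples. The mean leg differences over all rats, their correlation and the count of genes called for loading are given with and without rats 21 and 27. The tissue label was checked on 12 muscle-fibre markers, 11 of which were measured. Their mean level ran from 11.39 to 13.43 over the arrays, above the median of every array (6.07 to 6.20). The array values were made by quantile normalisation, and no signal over background was used.

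Rbm3 stood higher in the loaded leg of 20 of 23 rats, by a mean of 1.01 ± 0.90 on the log2 scale (SD, n = 23; SEM 0.19), which is 2.02-fold. Cirbp stood higher in 20 of 23 rats as well, by 0.42 ± 0.46 (SD, n = 23; SEM 0.09), or 1.34-fold. These differences are what selected the genes. Among the 9289 genes the mean leg difference of Rbm3 was the largest and that of Cirbp ranked 21, and 2.9% of all genes (269) passed the test of loading over all rats, 1.08% higher and 1.82% lower. In whole muscle, fewer cells of a type and less RNA per cell cannot be told apart.

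In the 13 rats of 6 h to 4 d, Rbm3 ran from 8.49 to 9.60 in unloaded legs (median 8.82) and from 8.89 to 10.76 in loaded legs (median 9.86). The ranges overlapped, and the lowest 2 loaded legs were those of rats 21 and 27, at 8.89 and 8.97. Leg differences in this window averaged 0.75 ± 0.65 (SD, n = 13), with 11 of 13 rats higher in the loaded leg. The lowest was -0.71 in rat 21, the next -0.23 in rat 27, the median 0.92 and the highest 1.78 in rat 37. The rats with a lower loaded leg were thus the pair whose loaded legs gave the closest arrays.

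In the 4 rats of 5 to 8 d, Rbm3 in unloaded legs was 10.60, 7.10, 9.04 and 9.60 in rats 41, 43, 53 and 55. The loaded legs of the same rats read 10.46, 10.49, 10.56 and 10.39. The loaded legs lay within a narrow band (SD 0.07), whereas the unloaded legs spread over a range that held both the lowest and the highest unloaded value of the study (SD 1.47). Leg differences were -0.14, 3.39, 1.52 and 0.78 in that order, with a mean of 1.39 ± 1.50 (SD, n = 4). The largest belonged to rat 43, whose unloaded leg was the lowest of all 46 arrays.

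In the 6 rats of 9 to 14 d, Rbm3 ran from 7.71 to 9.58 in unloaded legs (median 8.94) and from 9.20 to 11.37 in loaded legs (median 9.80). The groups overlapped, since the loaded legs of rats 47, 57 and 59 lay below the highest unloaded leg. Within rats the loaded leg was higher in 6 of 6, by 1.32 ± 0.88 (SD, n = 6). The difference was 0.09 in rat 47, 0.62 in rat 59, 1.25 in rat 45, 1.40 in rat 57, 2.03 in rat 49 and 2.50 in rat 51, whose pairing is uncertain.

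**Figure D1:**
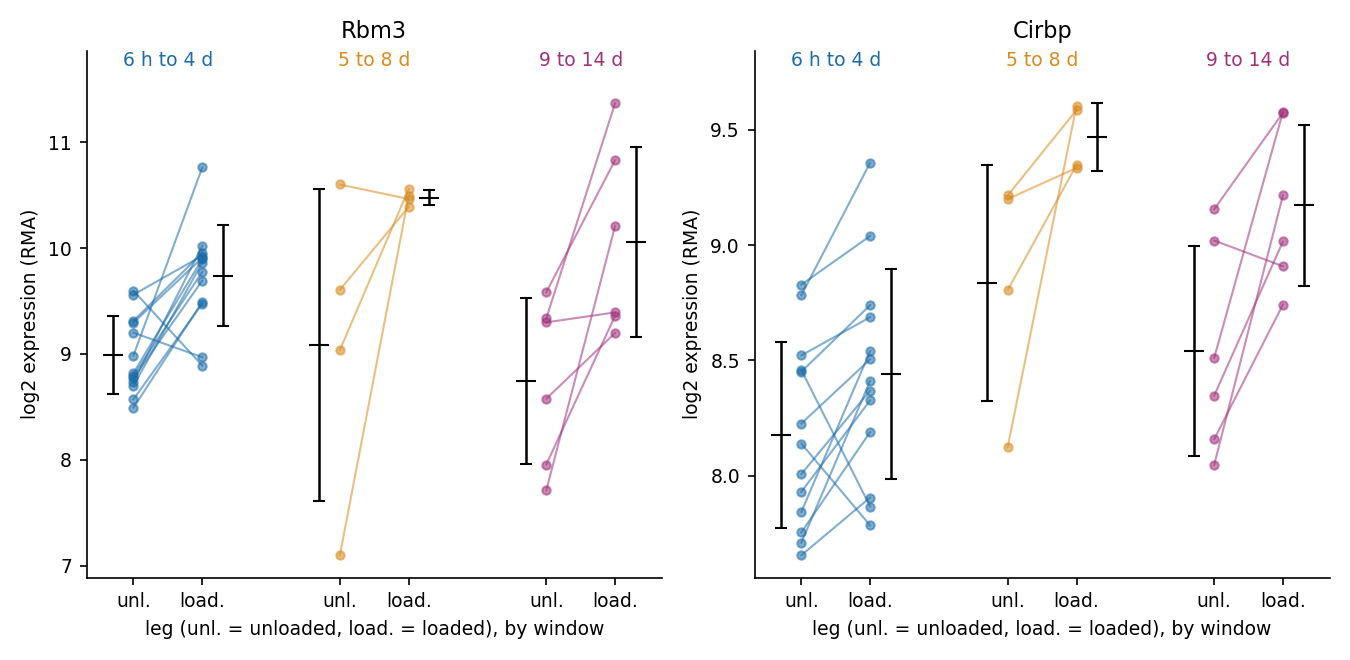
Levels of Rbm3 and Cirbp (y axis, log2 expression) in unloaded and loaded legs of each window (x axis), 1 point per leg with a line joining the legs of a rat, and the mean and SD of each group. Loaded legs at 5 to 8 d lie close together for Rbm3 (10.39 to 10.56), while the unloaded legs of the same 4 rats run from 7.10 to 10.60.

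Cirbp in the 13 rats of 6 h to 4 d ran from 7.65 to 8.83 in unloaded legs (median 8.14) and from 7.78 to 9.36 in loaded legs (median 8.41). The ranges of both legs overlapped over most of their length. Leg differences averaged 0.26 ± 0.37 (SD, n = 13), from -0.59 in rat 27 and -0.36 in rat 21 to 0.70 in rats 19 and 23. The other 11 rats of the window were all higher in the loaded leg.

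At 5 to 8 d, Cirbp in unloaded legs was 9.22, 8.12, 8.81 and 9.20 in rats 41, 43, 53 and 55, and in loaded legs 9.59, 9.60, 9.35 and 9.33. Every loaded leg of this window exceeded every unloaded leg. Leg differences were 0.37, 1.48, 0.54 and 0.13, with a mean of 0.63 ± 0.59 (SD, n = 4), again largest in rat 43.

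At 9 to 14 d, Cirbp ran from 8.05 to 9.15 in unloaded legs (median 8.43) and from 8.74 to 9.58 in loaded legs (median 9.12). The loaded leg was higher in 5 of 6 rats, and the groups overlapped. The mean difference was 0.63 ± 0.46 (SD, n = 6), from -0.11 in rat 47 to 1.17 in rat 51.

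Both genes were higher in the loaded leg of 19 rats and both were lower in 2, rats 21 and 27. They went opposite ways in 2 rats, with Rbm3 lower in rat 41 and Cirbp lower in rat 47. The log2 difference of Rbm3 was the larger of both in size in 20 of 23 rats. It reached 1, a doubling, in 10 rats, and that of Cirbp did so in 3, rats 43, 49 and 51. Without rats 21 and 27 the mean differences were 1.15 for Rbm3 and 0.51 for Cirbp. Without rats 43, 49 and 51 they were 0.77 and 0.30, and in the 17 rats not called uncertain in pairing 1.07 and 0.46.

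**Figure D2:**
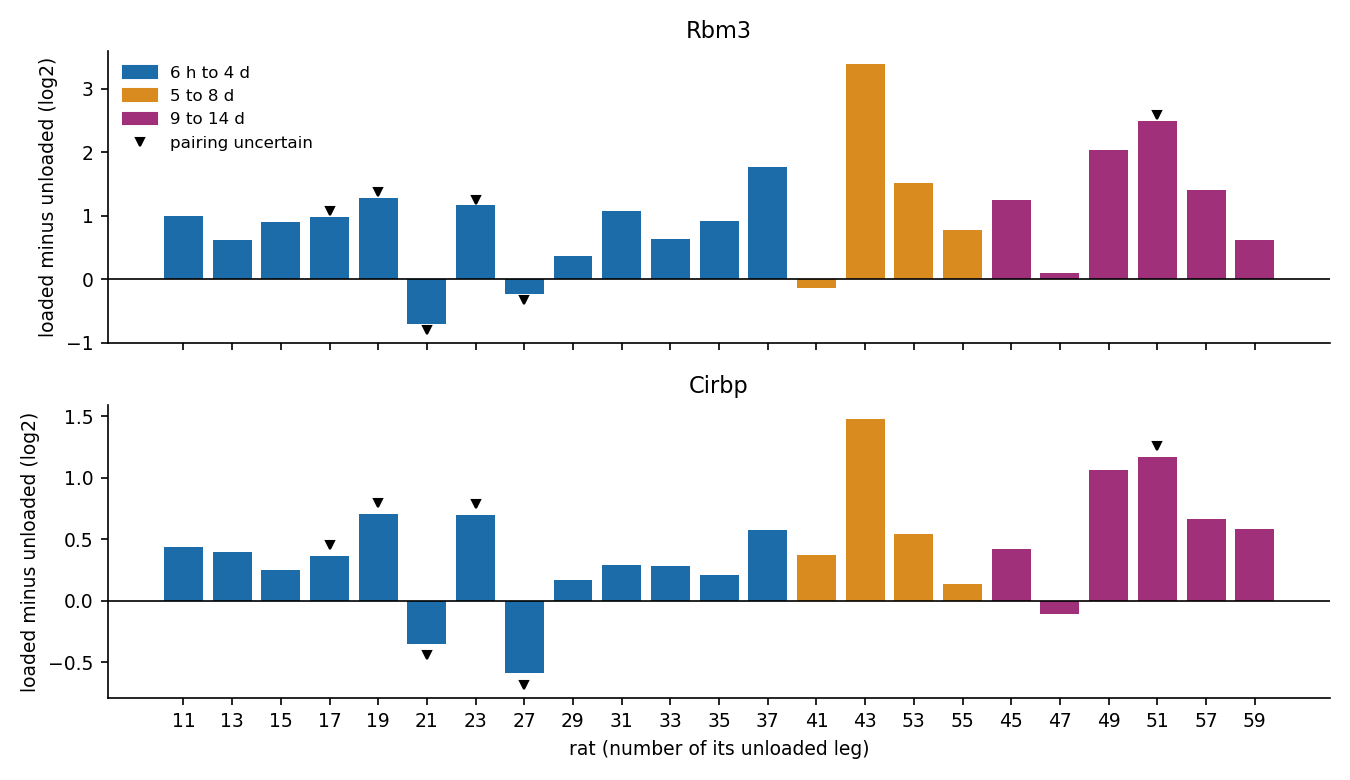
Leg difference of each rat (loaded minus unloaded, y axis, log2) for Rbm3 and Cirbp, with rats along the x axis grouped by window. Most bars rise above 0, those of rats 21 and 27 fall below it for both genes, and rat 43 has the highest value of both genes (3.39 and 1.48). Black triangles mark the rats of uncertain pairing.

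The labels also carry a 6-digit code of unstated meaning with 5 values, numbered 1 to 5 here. Code 3 holds rats of all windows (4, 2 and 4 rats), code 5 holds 2 rats of 5 to 8 d and 2 of 9 to 14 d, and codes 1, 2 and 4 hold rats of 6 h to 4 d only. The mean leg difference of Rbm3 was above 0 in each code: 1.00 in the 1 rat of code 1, 0.76 ± 0.21 (SD, n = 2) in code 2, 1.35 ± 1.09 (SD, n = 10) in code 3, 0.48 ± 0.81 (SD, n = 6) in code 4 and 1.08 ± 0.45 (SD, n = 4) in code 5. For Cirbp the means were 0.43, 0.32 ± 0.10, 0.57 ± 0.50, 0.16 ± 0.54 and 0.48 ± 0.24 in the same order and with the same n. Code 4, which holds rats 21 and 27, had the lowest mean for both genes.

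Whether the leg difference itself changed with duration was tested on the 46 arrays together, blocked by rat (limma, Benjamini-Hochberg adjustment over 9289 genes), a contrast the selection did not use. For Rbm3 the leg difference at 5 to 8 d exceeded that at 6 h to 4 d by 0.64 (SE 0.46, adjusted p = 0.895), and at 9 to 14 d by 0.56 (SE 0.40, adjusted p = 0.775). For Cirbp these values were 0.37 (SE 0.23, adjusted p = 0.882) and 0.37 (SE 0.20, adjusted p = 0.690). The later windows differed from each other by -0.07 (SE 0.52) for Rbm3 and 0.00 (SE 0.26) for Cirbp, both with an adjusted p of 1.00. None of these passed, and 0% of all genes passed in any of the 3 contrasts, with 557, 717 and 248 genes at an unadjusted p under 0.05. Without rat 43 the difference of Rbm3 between 5 to 8 d and 6 h to 4 d turned to -0.03.

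Cirbp was higher at 5 to 8 d than at 6 h to 4 d in both legs, and at 9 to 14 d in loaded legs. With the label code as a covariate these differences were smaller and missed the threshold. In the 23 loaded legs, tested alone with 1 array per rat, Cirbp was higher at 5 to 8 d than at 6 h to 4 d by 1.03 (SE 0.22, 2.04-fold, adjusted p = 8.04e-04) and at 9 to 14 d by 0.73 (SE 0.19, 1.66-fold, adjusted p = 0.00290), with limma. In these contrasts 39% and 44.2% of all genes passed, 26.9% and 29% of them as higher, so a rise with duration was common among genes. The 9 to 14 d and 5 to 8 d windows differed by -0.30 (SE 0.24, adjusted p = 0.620), where 0.226% of genes passed.

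In the 23 unloaded legs Cirbp was higher at 5 to 8 d by 0.66 (SE 0.23, 1.58-fold, adjusted p = 0.0313), where 35.9% of all genes passed and 23.6% passed as higher. At 9 to 14 d it was higher by 0.36 (SE 0.20, adjusted p = 0.146), which missed the threshold in a contrast where 45.6% of genes passed. The later windows differed by -0.30 (SE 0.26, adjusted p = 0.615), again with 0.226% of genes passing. The rise at 5 to 8 d was no longer past the threshold without rat 41 (0.53, adjusted p = 0.124), rat 53 (0.67, adjusted p = 0.0688) or rat 55 (0.54, adjusted p = 0.143).

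The label code moves with duration. Codes 1, 2 and 4 hold rats of 6 h to 4 d only. With the code as a covariate, contrasts against that window thus rest on its rats of code 3. This fit and the one within code 3 alone are therefore not separate checks. With the covariate, Cirbp in unloaded legs differed by 0.32 at 5 to 8 d (adjusted p = 0.566) and 0.00 at 9 to 14 d (adjusted p = 0.996). In loaded legs it differed by 0.74 (adjusted p = 0.05002, which did not pass) and 0.38 (adjusted p = 0.188). Within code 3 alone, with 10 rats, Cirbp differed by 0.10 and 0.69 at 5 to 8 d in unloaded and loaded legs and by 0.41 at 9 to 14 d in loaded legs, with adjusted p of 0.939, 0.322 and 0.275.

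No change of Rbm3 with duration passed the test. In unloaded legs it was higher at 5 to 8 d by 0.10 (SE 0.40, adjusted p = 0.871) and lower at 9 to 14 d by -0.24 (SE 0.34, adjusted p = 0.580), and the later windows differed by -0.34 (SE 0.45, adjusted p = 0.750). In loaded legs the values were 0.74 (SE 0.31, adjusted p = 0.0644), 0.32 (SE 0.27, adjusted p = 0.349) and -0.42 (SE 0.35, adjusted p = 0.630). The first of these passed without rat 37 (0.82, adjusted p = 0.0279) or rat 49 (0.74, adjusted p = 0.0321).

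Group means of Rbm3 rose in the order unloaded 9 to 14 d (8.74 ± 0.78), unloaded 6 h to 4 d (8.99 ± 0.37), unloaded 5 to 8 d (9.08 ± 1.47), loaded 6 h to 4 d (9.74 ± 0.48), loaded 9 to 14 d (10.06 ± 0.90) and loaded 5 to 8 d (10.48 ± 0.07, all SD, n = 6, 13, 4, 13, 6 and 4). All 3 unloaded groups lay below all 3 loaded groups. Those of Cirbp rose in the order unloaded 6 h to 4 d (8.18 ± 0.40), loaded 6 h to 4 d (8.44 ± 0.46), unloaded 9 to 14 d (8.54 ± 0.46), unloaded 5 to 8 d (8.84 ± 0.51), loaded 9 to 14 d (9.17 ± 0.35) and loaded 5 to 8 d (9.47 ± 0.15, n = 13, 13, 6, 4, 6 and 4). For Cirbp the loaded legs of the shortest window lay below the unloaded legs of both later windows. No step between neighbours in either order exceeded the larger SD of both groups.

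The genes moved together from rat to rat. The leg differences of Rbm3 and Cirbp correlated with r = 0.90 and rho = 0.82 over 23 rats. These values carry no p-value here, because leg differences selected the genes. The levels were tested by permutation of pairings, two-sided, with p-values adjusted over 3 relations, the leg differences included. The smallest p that 100000 resamples can give is 1e-05. In loaded legs the levels correlated with r = 0.80 (permutation p = 1e-05, adjusted 1.5e-05) and rho = 0.74 (p = 1.9e-04, adjusted 2.85e-04). In unloaded legs they correlated with r = 0.55 (permutation p = 0.00631, adjusted 0.00631) and rho = 0.65 (p = 0.00101, adjusted 0.00101). All levels of a rat come from the same arrays, and loaded-leg levels are part of the leg differences that selected the genes. The permutation took no account of windows. Centred on window means, r was 0.80 in loaded and 0.67 in unloaded legs. Loaded legs without rats 21 and 27 gave r = 0.72.

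The relation of the leg differences held without the 2 rats farthest from the median, 21 and 43 (r = 0.84), and without rats 21 and 27 (r = 0.88). It held within 6 h to 4 d (r = 0.88, n = 13), within 9 to 14 d (r = 0.93, n = 6), within code 3 (r = 0.91, n = 10) and within code 4 (r = 0.94, n = 6). Code 4 holds rats 17, 19, 21, 23 and 27, all of uncertain pairing, and the loaded legs of rats 21 and 27 gave the closest arrays. Centred on window means r of the leg differences was 0.89. Loaded-leg levels gave r = 0.75 without rats 21 and 49, 0.85 within 6 h to 4 d, 0.96 within 9 to 14 d, 0.75 within code 3 and 0.95 within code 4. Unloaded-leg levels gave r = 0.49 without rats 41 and 43, 0.83 within 9 to 14 d and 0.77 within code 3, but 0.37 within 6 h to 4 d (n = 13, permutation p = 0.21) and 0.77 within code 4 (n = 6, exact permutation p = 0.0931), which missed the threshold. Windows and codes of fewer than 6 rats gave no value.

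**Figure D3:**
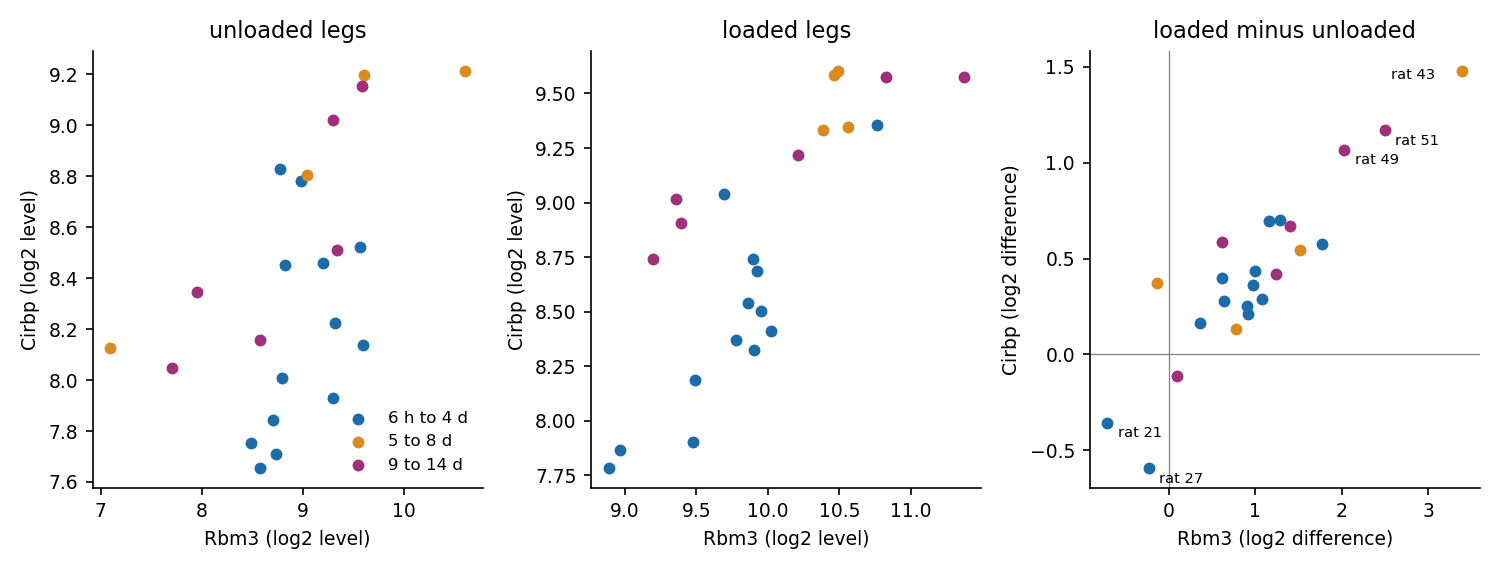
Cirbp (y axis) against Rbm3 (x axis) on the log2 scale, 1 point per rat marked by window, for unloaded legs, loaded legs and leg differences. Points lie closest to a line for the leg differences (r = 0.90) and scatter most in unloaded legs (r = 0.55).

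Among the 9288 other genes, Cirbp was the one whose leg differences over 23 rats were most like those of Rbm3, and Rbm3 the one most like Cirbp. This is a ranking by Pearson r with no p, and all values share the same arrays. Over all genes r to Rbm3 ran from -0.50 at the 5th percentile to 0.51 at the 95th (median 0.01), and r to Cirbp from -0.49 to 0.54 (median 0.03). The likeness rested partly on the rats with the largest differences. Without rats 43, 49 and 51, r between the members was 0.79, Cirbp ranked 5 for Rbm3 and Rbm3 ranked 6 for Cirbp.

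After Cirbp, the genes most like Rbm3 were Tmem182, a muscle membrane protein (r = 0.87), Fubp3, a nucleic acid-binding protein (0.86), Pak1ip1, which acts in ribosome assembly (0.84), and Sft2d2, a vesicle transport protein (0.81). Their mean leg differences were far smaller than that of Rbm3, at 0.10, 0.09, 0.16 and 0.19. Those most like Cirbp after Rbm3 were Fubp3 (0.85), the DNA mismatch repair gene Pms2 (0.84), the methionine synthase gene Mtr (0.82) and Tmem182 (0.81), with 0.24 as the mean leg difference of Mtr, which was higher in 19 of 23 rats. Of the genes named here, Fubp3 was the one whose r changed least without rats 43, 49 and 51, at 0.85 to Rbm3 and 0.82 to Cirbp. Without rats 21 and 27 its r was 0.82 to Rbm3 and 0.74 to Cirbp.

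At the opposite end, the genes that ran most against Rbm3 were Pomgnt2, a glycosyltransferase of dystroglycan (-0.87), the co-chaperone Dnajb2 (-0.82), the transcription factor Stat5a (-0.81), the ubiquitin ligase adaptor Asb11 (-0.80) and the ubiquitin-conjugating enzyme Ube2b (-0.80). For Cirbp they were the co-chaperone Stip1 (-0.82), Ankrd9 (-0.81), the co-chaperone Dnajb1 (-0.80), Szrd1 (-0.79) and Abhd14a (-0.79). Dnajb2 had a mean leg difference of -0.22 and was lower in 18 of 23 rats, and Stip1 one of -0.25, lower in 17 of 23. Ankrd9 ran against Cirbp with a mean of 0.13, higher in 15 of 23 rats.

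**Figure D4:**
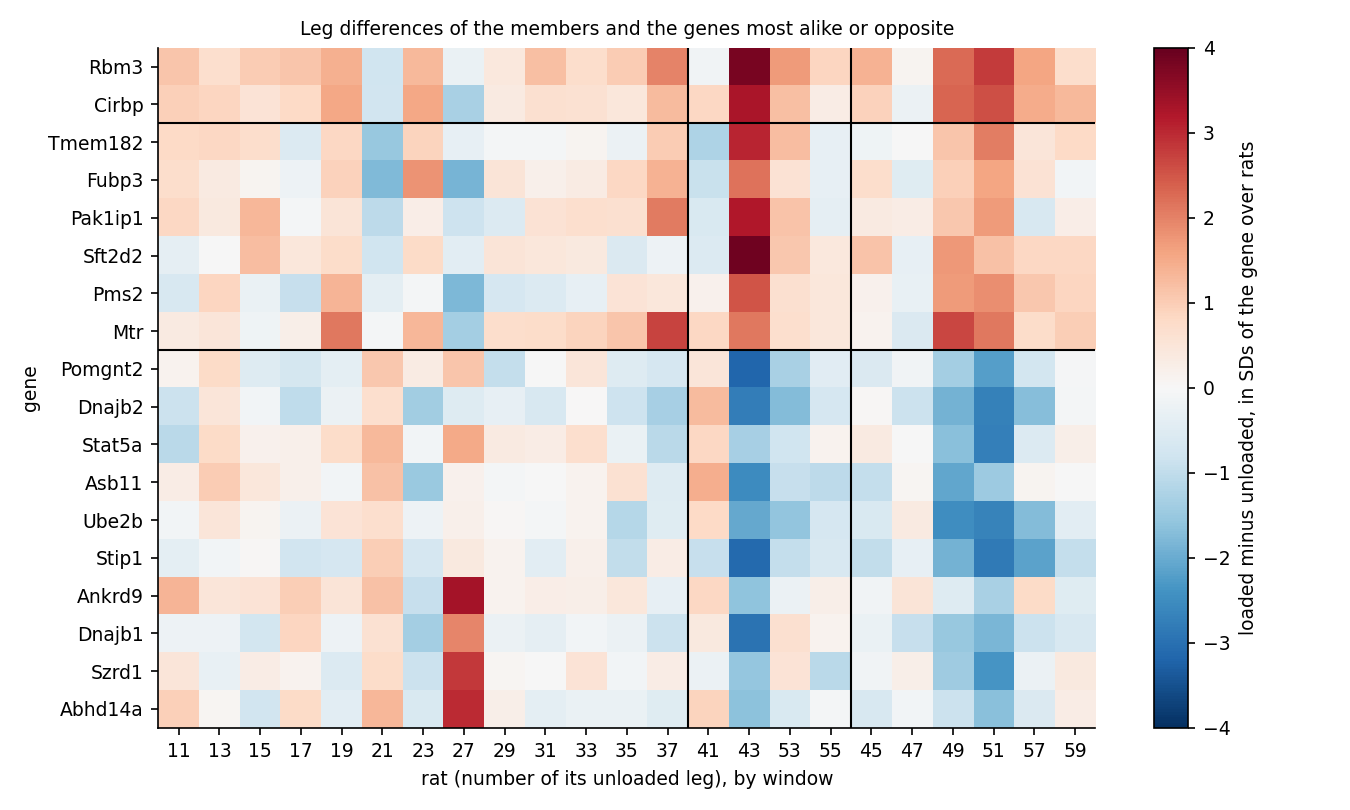
Leg differences (colour, each gene divided by its own SD over 23 rats) of Rbm3, Cirbp and the genes named as most alike or most opposite (rows), by rat (columns, grouped by window). The strongest colours of the members fall in rats 43, 49 and 51, on the high side. Rats 21 and 27 have the lowest values of both members, but their colour is pale for Rbm3 (log2 differences of -0.71 and -0.23). The opposite genes show the reverse colours in several of these rats.

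In the heat shock list, 21 of 24 measured genes stood lower in the loaded leg. Hspa1a and Hspa1b of this list were not measured, and the part of temperature was not tested. Of the list 5 passed as lower and 0 as higher over all 23 rats (limma, rat as a block), where 1.82% of all genes passed as lower. The median of the list was -0.14, against -0.01 for all genes. By window it was -0.05 at 6 h to 4 d, -0.21 at 5 to 8 d and -0.28 at 9 to 14 d. In these windows 0, 0 and 2 genes of the list passed as lower, where 0, 0 and 10 of all genes did. No gene passed for a change of the leg difference between windows. Hsp90aa1, the inducible cytosolic Hsp90, fell by 0.39 (SE 0.08, adjusted p = 0.0165, lower in 19 of 23 rats). Hsph1, a nucleotide exchange factor of Hsp70, fell by 0.33 (SE 0.08, adjusted p = 0.0327, lower in 19 of 23 rats).

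Stip1, which links Hsp70 and Hsp90, fell by 0.25 (SE 0.05, adjusted p = 0.0174), the Hsp90 co-chaperone Chordc1 by 0.19 (SE 0.04, adjusted p = 0.0245) and the immunophilin Fkbp4 by 0.18 (SE 0.05, adjusted p = 0.0418). The small heat shock gene Hspb1 stood at -0.22 (adjusted p = 0.0527), Dnajb1 at -0.16 (adjusted p = 0.274), the constitutive Hsp70 gene Hspa8 at -0.08 (adjusted p = 0.251), Hsf1 at -0.06 (adjusted p = 0.447) and Hspb8 at 0.05 (adjusted p = 0.738). Hsp90aa1 and Stip1 passed with any 1 rat left out. Hsph1 did not pass without rat 45, 49, 51 or 57, Chordc1 did not without rat 45 or 49, and Fkbp4 lost the call when any 1 of 13 rats was left out. Within code 3 alone, 0 of the 24 genes passed as lower, where 1 of all genes passed, and 0 of the 24 passed as lower with the legs unpaired. In code 3 the falls of the genes that passed over all rats were larger, from -0.23 for Fkbp4 to -0.55 for Hsph1. Unpaired legs left the mean differences unchanged.

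From rat to rat the heat shock genes tended to run against the members. The median r of their leg differences was -0.52 to Rbm3 and -0.50 to Cirbp, against 0.01 and 0.03 over all genes, and r was below 0 for 19 and 20 of 24 genes. Stip1 was the most negative (-0.78 and -0.82) and the transcription factor gene Hsf2 the most positive (0.64 and 0.73). Hsph1 gave -0.73 and -0.78, Dnajb1 -0.75 and -0.80, and Hspb8 0.44 and 0.39. Without rats 43, 49 and 51 the medians were -0.35 and -0.28, and 19 and 18 of the 24 genes were below 0. These are descriptions over 23 rats that share arrays with the members.

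**Figure D5:**
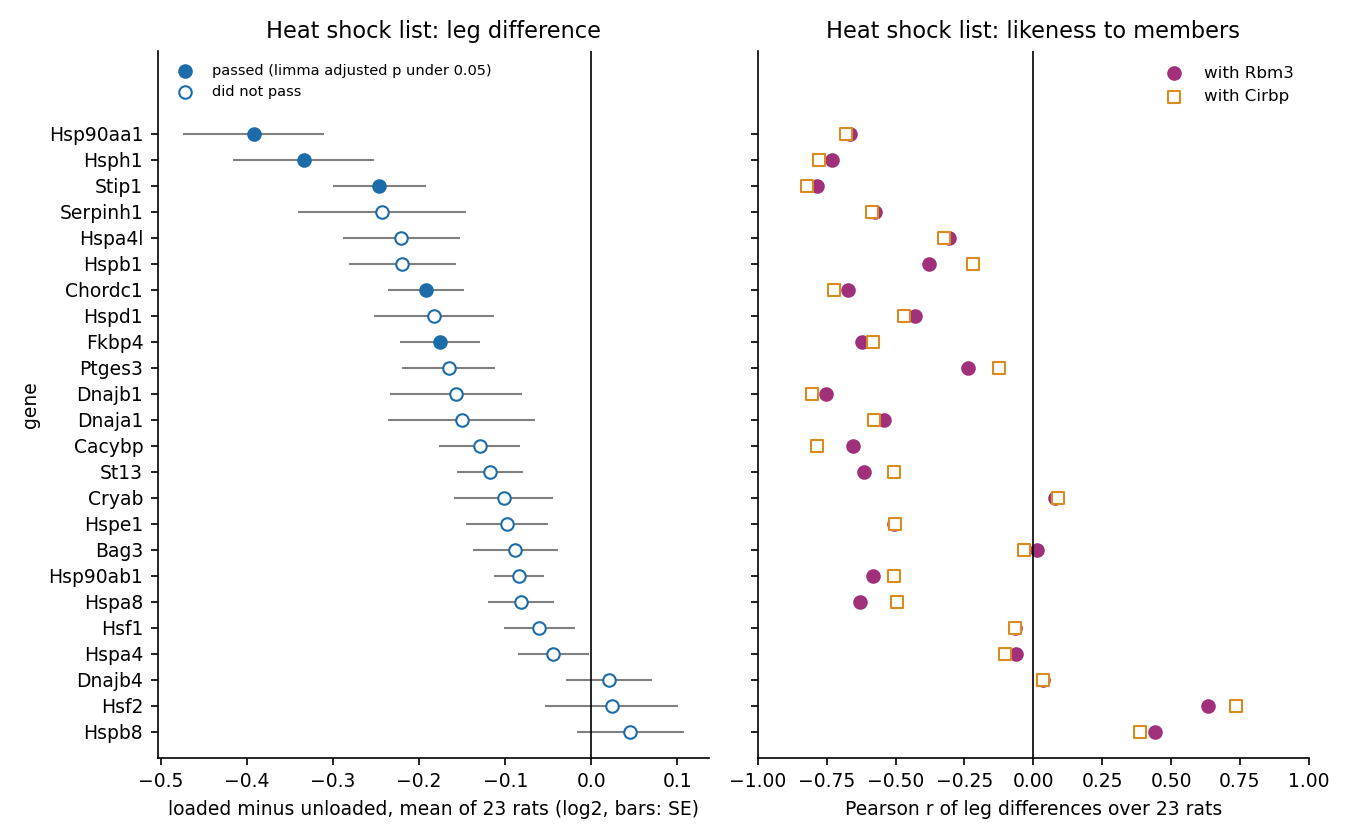
Leg differences of heat shock genes and their Pearson r to the leg differences of Rbm3 and Cirbp over 23 rats. Most of the 24 genes lie below 0 on both measures, with Hsp90aa1 lowest by mean leg difference (-0.39) and Hsf2 highest by r (0.64 to Rbm3).

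With duration the heat shock list went up in unloaded legs. At 9 to 14 d against 6 h to 4 d, 17 of 24 passed as higher and 1, Fkbp4, as lower by -0.30, where 28.7% of all genes passed as higher and 16.9% as lower, and the median was 0.50 against 0.07 over all genes. With the label code as a covariate 11 of the 24 passed as higher, and in code 3 alone 3 did. The percentages of all genes given here and for the lists below are those of the main fit. They are no measure for counts with the covariate or in code 3, where fewer of all genes passed in code 3. Hspb8 rose by 1.30, Hsp90aa1 by 1.29, Hsph1 by 1.24 and Dnaja1 by 0.98. Hsp90aa1 lost the call with the code as a covariate, and Hspb8, Hsp90aa1 and Dnaja1 lost it in code 3 alone. In loaded legs 9 of 24 rose and 1 fell in the same contrast, with a median of 0.35, where 29% of all genes rose and 15.2% fell. With the label code as a covariate 2 rose, and in code 3 alone 0 did. Cirbp in unloaded legs stood 0.36 higher and Rbm3 0.24 lower (-0.24) in this contrast, and neither passed.

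Of 26 other RNA-binding genes with related domains, 1 passed as higher over all rats, where 1.08% of all genes did. This was Rbm24, a splicing regulator of striated muscle, which rose by 0.23 (SE 0.06, adjusted p = 0.0445) and lost the call when any 1 of 17 rats was left out. It also lost the call with no filter, with the legs unpaired, without rats 35 and 37 and in code 3 alone. The list's median was 0.01. Over the rats their median r was 0.34 to Rbm3 and 0.42 to Cirbp, highest for Tia1, a stress granule protein (0.72 and 0.73). With duration in unloaded legs 9 of 26 rose and 1 fell at 9 to 14 d, a count of rises near the 28.7% of all genes that rose, and 2 passed as higher with the label code as a covariate or in code 3 alone. Rbm47 rose by 2.83, Rbm45 by 0.65, Tia1 by 0.55 and Hnrnpa3 by 0.54, and Rbm20, which controls splicing of titin, fell by 0.50. Tia1 and Hnrnpa3 lost the call with the code as a covariate and in code 3 alone.

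The cold shock domain genes, another family named for cold, gave 0 of 4 passed for loading, where 2.9% of all genes passed. Carhsp1 stood at -0.08 (adjusted p = 0.498), Ybx3 at -0.04 (adjusted p = 0.382), Ybx1 at -0.04 (adjusted p = 0.505) and Csdc2 at 0.02 (adjusted p = 0.842). With duration in unloaded legs Ybx3 rose by 0.24 and Ybx1 by 0.17, and Csdc2 fell by 0.35, where 28.7% of all genes rose and 16.9% fell. None of the 4 passed with the label code as a covariate or in code 3 alone. Of 24 temperature-sensitive splicing genes 0 passed for loading, with a median of -0.02, and 5 rose and 3 fell with duration in unloaded legs, a share below that of all genes (28.7% and 16.9%). With the label code as a covariate 1 rose and 1 fell, and in code 3 alone 0 passed. Tra2a rose by 0.75 and Srsf1 fell by 0.38.

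Among 9 measured genes reported as targets or partners of the members, 0 passed for loading, where 2.9% of all genes did. Values ran from -0.09 for Cdkn1b to 0.10 for Dyrk1b. Rtn3, a synapse-related target of Rbm3, stood at 0.01 (adjusted p = 0.935) and Clock at 0.04 (adjusted p = 0.677). With duration in unloaded legs 4 of 9 rose: Odc1, of polyamine synthesis, by 0.92, Ccnd1 by 0.54, Yap1 by 0.46 and Cdkn1b by 0.46, where 28.7% of all genes rose. With the label code as a covariate 3 of 9 passed, and Odc1 did not. Of 14 circadian genes 1 fell with loading, Dbp, an output of the clock, by 0.27 (SE 0.05, adjusted p = 0.0119, lower in 22 of 23 rats), where 1.82% of all genes fell. The call held with any 1 rat left out. It was lost with the rat as a random block (adjusted p = 0.0538), with the legs unpaired and in code 3 alone (-0.35 there). In unloaded legs 7 of 14 fell with duration and 0 rose, where 16.9% of all genes fell, with Nfil3 at -1.58 and Per1 at -1.13. With the label code as a covariate 3 passed as lower, and Nfil3 did not. In code 3 alone 2 circadian genes and none of the 9 targets or partners passed in these directions.

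Of 21 hypoxia genes 1 fell with loading, Ero1a, by 0.15 (SE 0.04, adjusted p = 0.0347), where 1.82% of all genes fell. It lost the call when any 1 of 8 rats was left out, with no filter and with the legs unpaired. Without rats 35 and 37 and in code 3 alone (-0.07) the call was lost as well. Of 9 genes of muscle heat production and thermal sensing 0 passed for loading, where 2.9% of all genes did. Sln, which uncouples the calcium pump, stood at -0.34 (SE 0.23, adjusted p = 0.453), although it rose with duration in unloaded legs by 3.81.

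Markers of other cell types were read beside the leg difference. The fibroblast list had 2 of 8 genes higher with loading, Pi16 by 0.40 and Mfap5 by 0.38, where 1.08% of all genes were. Both lost the call in code 3 alone, with differences of 0.60 and 0.48 there, and with the legs unpaired. Mfap5 also lost it without rat 49. Pi16 lost it when any 1 of 11 rats was left out, with no filter and without the rats of uncertain pairing. The call of Pi16 was also lost without rats 35 and 37 and with the rat as a random block (adjusted p = 0.0637). Dcn (-0.14), Lum (-0.16) and Pdgfra (-0.06) of this list stood below 0 and did not pass. The list's summed level, as a mean over genes, ran from 7.95 to 10.22 in unloaded and from 8.24 to 10.26 in loaded legs. In the lists of macrophage, endothelial, adipocyte, smooth muscle, tendon, blood, Schwann and muscle-fibre markers 0 genes passed for loading, where 2.9% of all genes did. The median r of the fibroblast list to the members was 0.23 and 0.24. All 6 measured adipocyte markers stood lower in loaded legs without passing (median -0.26), Adipoq at -0.91 (adjusted p = 0.151) and Cidec at -0.72 (adjusted p = 0.147), and the r of all 6 to both members was below 0, with medians of -0.28 and -0.17. Their mean level ran from 6.26 to 8.05 in unloaded and from 6.21 to 8.51 in loaded legs. With duration, 7 of 10 macrophage markers rose in unloaded legs at 9 to 14 d (median 0.98), where 28.7% of all genes rose, and 6 of 11 muscle-fibre markers fell, where 16.9% fell. These counts were 8 and 4 with the label code as a covariate and 0 and 0 in code 3 alone. At 5 to 8 d 7 of 8 fibroblast markers fell in unloaded legs, where 12.3% of all genes fell. With the label code as a covariate 1 of 8 fell, and in code 3 alone 0 did. The part of these cell types in the values of Rbm3 and Cirbp was not tested.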

How the data were processed

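RNA of 46 legs was hybridised to single-colour Affymetrix arrays. The authors deposited log2 expression values of 26208 probe sets on each array, made with RMA (version not stated) per the submitters' processing notes. RMA corrects background, quantile-normalises and summarises probes, so a shift shared by most transcripts would be partly removed. Array medians ran from 6.07 to 6.20. The number of arrays limits the precision, and all p-values measure the spread between these rats.

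The platform annotation listed 15411 probe sets, 15088 with 1 gene symbol and 323 with several, and 10797 are unnamed here. Probe sets above the median of their array on 4 or more arrays were kept. Each of the 9289 genes was represented by its kept probe set of highest mean. Columns of other samples numbered 0.

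Windows were compared in the 23 unloaded and the 23 loaded legs separately, and legs on the 46 arrays together, blocked by rat. The tests were two-sided in limma 3.58.1 (eBayes after lmFit, R 4.3.3), with p-values adjusted by Benjamini-Hochberg over 9289 genes and a threshold of 0.05. The calculation was tested on simulated data. The members were correlated with permutation of pairings (scipy 1.17.1; exact for 6 rats). Legs were paired by consecutive label numbers. This was checked by correlating, across genes, each pair's departures from the group means. In 21 of 23 rats r exceeded 0.1 (median 0.60), and it did not in rats 17 and 27. The own leg was the best match for 15 unloaded and 13 loaded legs of 23. The pairing is called uncertain for the 6 rats in which it was the best match for neither. In some others, rats 13 and 37 among them, it was the best match for 1 leg only.

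The members, the gene lists and the marker lists were chosen with earlier results of these data known. Lists are described by counts and medians with no set test. Named genes are the members, up to 4 passing genes per direction of a list by size, a list's defining genes, and the 5 genes with the highest and the 5 with the lowest r to each member. Alternatives covered cyclic loess normalisation, other filters, array weights, the block, the label code and left-out rats. Leaving out rats 21 and 27 together, and rats 43, 49 and 51 together, was chosen after seeing the data.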

Additional observations from a re-analysis of the deposited data

How the results depend on the processing

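The mean leg differences of Rbm3 and Cirbp, overall and per window, kept their direction under every alternative run. The settings of the filter and of the block leave these means unchanged, so those could not turn the direction. These differences also selected the genes. Of the duration tests, Cirbp at 5 to 8 d against 6 h to 4 d in unloaded legs (0.66) was 0.51 with cyclic loess, 0.32 with the label code as a covariate, 0.57 without the 6 rats of uncertain pairing and 0.10 in code 3 alone, none past the threshold. In loaded legs the same contrast (1.03) missed it with the code as a covariate (0.74) and in code 3 (0.69). Cirbp at 9 to 14 d in loaded legs (0.73) missed it with the code (0.38), without the uncertain rats (0.57) and in code 3 (0.41). In unloaded legs it passed with array quality weights (0.55) and without rats 35 and 37 (0.48). Rbm3 at 5 to 8 d in loaded legs passed under these settings too (0.86 and 0.82). Differences near 0 changed sign. Rbm3 in unloaded legs at 5 to 8 d against 6 h to 4 d was -0.074 with loess and -0.12 in code 3, at 9 to 14 d against 6 h to 4 d it was 0.010 in code 3, and the later windows differed by 0.13 there (Cirbp 0.013). The change of Cirbp's leg difference between the later windows was -0.11 without the uncertain rats and -0.29 in code 3. With 1 rat left out, the change of the leg difference of Rbm3 from 6 h to 4 d to 5 to 8 d ran from -0.030 to 1.15, and between the later windows from -0.58 to 0.59 (Cirbp -0.16 to 0.28). In unloaded legs the 5 to 8 d contrast ran from -0.41 to 0.76 for Rbm3 and 0.53 to 0.90 for Cirbp, the later windows of Rbm3 from -1.004 to 0.16, and its loaded 5 to 8 d contrast from 0.66 to 0.82. The unloaded-leg correlation was 0.37 within 6 h to 4 d and 0.77 within code 4. In each case the cause was not tested. The count of genes called for loading (269) was 3 with no replicate block, 163 with no filter, 876 with array weights, 122 without rats 35 and 37, 438 without rats 21 and 27, 1 in code 3 and 103 to 375 with 1 rat left out. With weights, 526 genes passed for the change of the leg difference at 5 to 8 d, where the other settings and 1 rat left out gave 0 to 8. Within code 3, 16 and 904 genes passed for duration in unloaded legs and 0 and 453 in loaded legs (5 to 8 d and 9 to 14 d). These are fewer than in the main fit, so a lower count of list genes in code 3 was shared by genes at large. Another probe set could not be tried, as each gene has 1.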
